A study of Sus scrofa with 102 samples.

Results

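*NUDT7* was examined together with *HSDL2*, *ME2* and *HIBCH*, 4 genes of peroxisomal and mitochondrial metabolism, in the *Longissimus dorsi* muscle of 102 pigs. The 4 genes are among 2201 that have a gene symbol of their own among the deposited probes. The paper describes a filter that kept variable probes, so all probes here means the deposited ones and not the whole array. Each is read through a single probe, the one with the highest mean where a gene had several. *HSDL2* and *ME2* were selected on the size of their correlation with *NUDT7* in these same arrays, and *HIBCH* had been named in an earlier analysis of them. Correlations between these genes are therefore given as a description and without a test. Sex, slaughter batch and carcass weight were not the measure of that choice. Genes chosen to run with *NUDT7* can still share its differences, so agreement among them in sex or batch is not independent of the choice.

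The pigs were an Iberian by Landrace backcross, bred from F1 boars (Iberian Guadyerbas by Landrace) and Landrace sows, and all were fed ad libitum. The 55 females and 47 males were slaughtered in 3 batches at 171 to 184 days of age, with carcass weights of 43.6 to 97.8 kg. Batch 1 pigs were 171 or 177 days old, except pig 27 at 181, and those of batches 2 and 3 were 178 to 184. Differences of batch 1 and of age can therefore hardly be told apart. Batch 1 held 8 females and 6 males, batch 2 held 36 and 34, and batch 3 held 11 and 7. Each pig gave 1 array, on a log2 intensity scale, so a difference of 1 unit is a doubling of signal. The pigs are related and were treated as independent, since the pedigree is not used here.

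Coenzyme A carries fatty acids through their breakdown, and peroxisomes shorten very long and branched chains before mitochondria oxidize the products. *NUDT7* encodes a peroxisomal nudix hydrolase that splits coenzyme A and its esters, and *HSDL2* a peroxisomal member of the short-chain dehydrogenase family. *ME2* encodes the mitochondrial NAD-dependent malic enzyme, which turns malate into pyruvate, and *HIBCH* the mitochondrial hydrolase that frees 3-hydroxyisobutyrate from coenzyme A in valine breakdown. In muscle, slow oxidative fibres rely on fatty acid oxidation more than fast glycolytic fibres do.

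Of 5449 probes tested, 2639 had 1 gene symbol. Array medians ranged from 6.20 to 6.68. Of the muscle fibre markers only *DES* was measured under its symbol, at batch means from 12.01 to 13.38. One array, a batch 3 male, had a median correlation of 0.746 with the others, the next lowest being 0.820. On 3 female-labelled arrays of batch 2, Y-linked *EIF1AY* was on the male side of the midpoint between the sexes at 6.82. Leaving out either the first array or these 3 changed no call of the 4 genes for sex or between 2 batches, and values without them stand beside several results below.

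*NUDT7* averaged 6.99 ± 0.91 (SD, n = 102), at percentile 61.1 of all probe means, and its lowest, median and highest values were 5.16, 7.06 and 9.47. *HSDL2* was the brightest of the 4 probes at 9.65 ± 0.59 (SD), percentile 92.3, with a range of 8.58 to 11.50 around a median of 9.62. *ME2* averaged 7.04 ± 0.60 (SD), percentile 62.3, and ranged from 5.52 to 8.74 around 7.02. *NUDT7* therefore had the widest spread, its SD lying at percentile 84.8 of all probes. *HIBCH* had the lowest mean, 6.20 ± 0.52 (SD), percentile 44.5, with a range of 4.69 to 7.83 around 6.21, and its SD lay at percentile 20.3. Intensities of different probes are not levels of RNA, so these means do not rank the genes. A second *HSDL2* probe averaged 9.50 ± 0.70 (SD) and its residuals correlated with those of the first at r = 0.915. In RefSeq, assembly Sscrofa11.1, *HSDL2* and *ME2* lie on chromosome 1, *NUDT7* on chromosome 6 and *HIBCH* on chromosome 15. The match is by symbol. For *NUDT7* the gene identifier in the array annotation differs from that of RefSeq, so its probe was matched here by the symbol alone. The paper lists the same probe as *NUDT7* on chromosome 6.

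The same pigs stood at the ends of several distributions. Pig 27, a batch 1 male, was highest of all 102 pigs for *NUDT7* (9.47) and for *ME2* (8.74), and 3rd for *HSDL2* (11.39), but was 17th for *HIBCH* (6.65). Pig 89, a batch 2 female, was lowest for *NUDT7* (5.16) and *HSDL2* (8.58). The highest *HSDL2* value, 11.50, was that of the batch 3 male whose array correlated least with the rest.

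**Figure D1:**
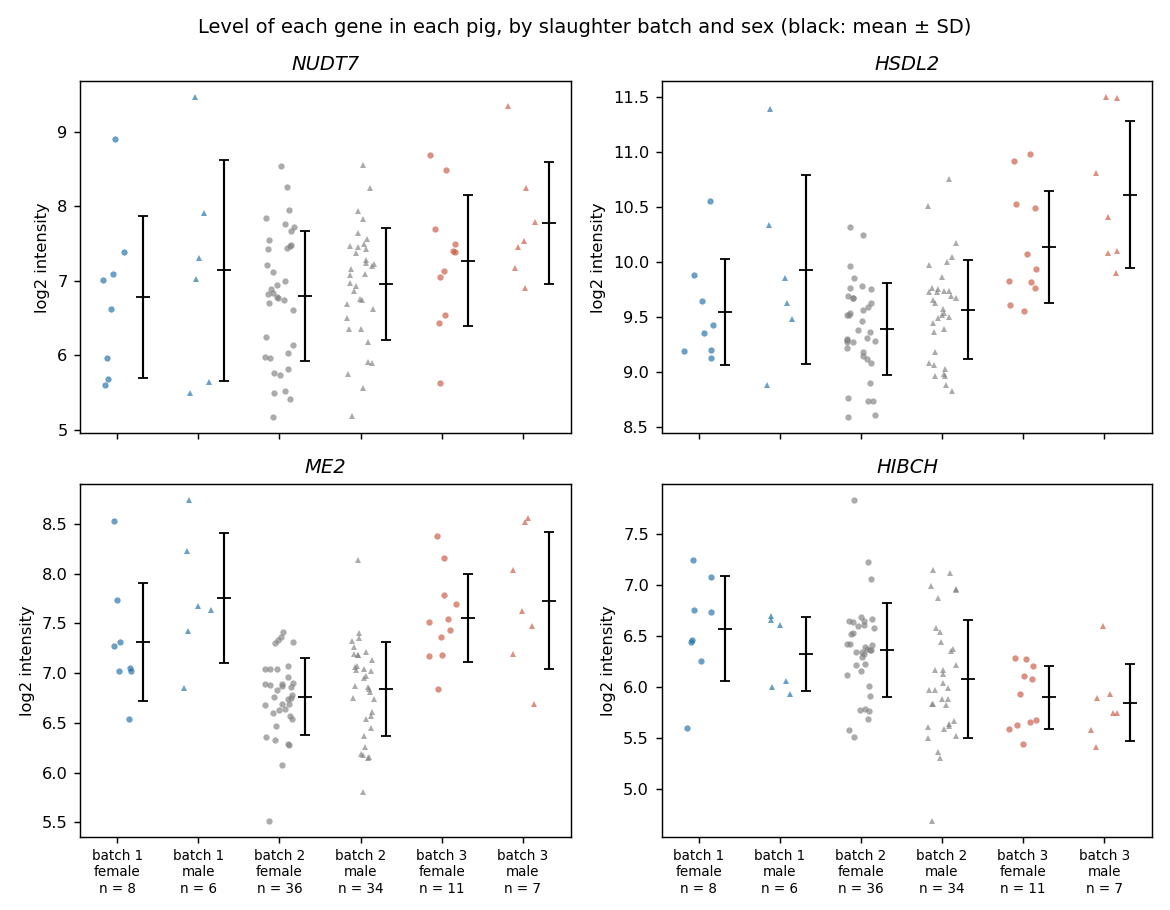
Log2 intensity of each gene in each of the 102 pigs (circles, females; triangles, males), by slaughter batch and sex, with the mean and SD of each of the 6 groups in black. *HSDL2* and *ME2* lie higher in batch 3 than in batch 2, *HIBCH* lies lower there, and all groups overlap.

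Sex differences were small beside the spread between pigs. *HIBCH* was the 1 gene of the 4 that passed for sex, a count near the background, since the sex test called 26.1% of all probes. In females its lowest, median and highest values were 5.44, 6.34 and 7.83, and in males 4.69, 5.97 and 7.15. The ranges overlapped widely. The fitted difference, female minus male, was 0.26 (SE 0.10; limma, adjusted p = 0.0386), and it was 0.26, 0.32 and 0.10 within batches 1, 2 and 3. Without the 3 arrays whose *EIF1AY* went against their label it was 0.27 (adjusted p = 0.0430). The call was lost with the mean of slow fibre genes in the model (0.25, adjusted p = 0.0525), with no other effects (0.22, 0.0981) and in batch 2 alone (0.32, 0.0503). Markers of other cells also differed by sex. Of 6 endothelial genes 3 were lower in females (*ESAM* -0.33, *PECAM1* -0.29, *TEK* -0.21; limma, adjusted p = 0.00964, 0.00942 and 0.0294), and the list averaged 6.70 in females and 6.94 in males. Of 6 fibroblast genes 2 were higher in females (*DCN* 0.27, *FBN1* 0.29; adjusted p = 0.0192 and 0.0442), with list means of 7.83 and 7.60, as were 2 of 6 adipocyte genes, *SCD* and *ADIPOQ*. None of 8 slow fibre, 2 fast fibre and 6 macrophage genes passed for sex. The same test called 26.1% of all probes, so these few calls set no list of markers apart. The part of these markers in the *HIBCH* difference was not tested.

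For the other 3 genes females had the lower values. *NUDT7* had a median of 6.94 in females (range 5.16 to 8.90) and 7.17 in males (5.19 to 9.47), and differed by -0.25 (95% interval -0.60 to 0.10; limma, adjusted p = 0.307). *HSDL2* had medians of 9.54 and 9.69 and differed by -0.25 (-0.45 to -0.05; adjusted p = 0.0583), and its second probe by -0.14 (adjusted p = 0.342). *ME2* had medians of 6.90 and 7.05 and differed by -0.14 (-0.34 to 0.05; adjusted p = 0.281). None of these passed, although each was below 0 in all 3 batches. Without the 3 arrays that went against their label, *NUDT7*, *HSDL2* and *ME2* differed by -0.29, -0.26 and -0.16 (limma, adjusted p = 0.238, 0.0504 and 0.238). The median sex difference of all probes was -0.03.

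For each gene the largest fitted difference between slaughter batches exceeded that between the sexes. The test across batches passed for *ME2* (limma, adjusted p = 2.63e-09), *HSDL2* (7.10e-08) and *HIBCH* (0.00444). It called 86.6% of all probes, so a call for batch sets no gene apart. *HSDL2* ranged from 8.88 to 11.39 (median 9.55) in batch 1, from 8.58 to 10.76 (9.51) in batch 2 and from 9.55 to 11.50 (10.09) in batch 3. Batch 3 was thus highest, and its range still overlapped the others. It exceeded batch 2 by 0.89 (SE 0.14; limma, adjusted p = 1.36e-08), in a comparison that called 81.5% of probes, and by 0.81 (2.24e-07) without the array that correlated least. *ME2* had medians of 7.37, 6.85 and 7.53 in the 3 batches, and batch 2 was the lowest. It was higher in batch 1 than in batch 2 by 0.72 (SE 0.15; adjusted p = 9.01e-06) and higher in batch 3 by 0.84 (SE 0.13; adjusted p = 2.60e-08), or by 0.78 (3.22e-07) without the array that correlated least. *NUDT7* had medians of 7.02, 6.93 and 7.43, and was higher in batch 3 than in batch 2 by 0.60 (SE 0.24; adjusted p = 0.0195), or by 0.55 (0.0386) without the array that correlated least. That call was lost with actin integrity in the model (0.43, adjusted p = 0.157) and with the slow fibre mean (0.37, 0.0754), and the test across all batches did not pass (adjusted p = 0.0554).

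*HIBCH* ran the other way. Its medians were 6.54, 6.26 and 5.82 in batches 1, 2 and 3, and its highest value in batch 3, 6.60, was below the highest in batch 2, 7.83. Batch 3 was lower than batch 2 by 0.32 on the log2 scale (difference -0.32, SE 0.14; limma, adjusted p = 0.0249), where the median of all probes was -0.17. Without the array that correlated least it was also -0.32 (adjusted p = 0.0331), and after quantile normalization it was -0.21 and did not pass (adjusted p = 0.157). Batch 1 exceeded batch 3 by 0.59 (SE 0.17; adjusted p = 0.0115) in a comparison that called 16.8% of probes, and *HSDL2* was lower in batch 1 than in batch 3, at -0.62 (SE 0.18; adjusted p = 0.00890), or -0.56 (0.0195) without the array that correlated least. With age in the model both differences stayed about as large, at 0.62 for *HIBCH* and -0.56 for *HSDL2*, but neither passed (adjusted p = 0.0903 and 0.140). Between batches 1 and 2, where 74.2% of probes were called and the median was -0.11, *HIBCH*, *HSDL2* and *NUDT7* differed by 0.27, 0.26 and 0.06 and did not pass (adjusted p = 0.0874, 0.105 and 0.835). After quantile normalization *HSDL2* (0.42, adjusted p = 0.0114) and *HIBCH* (0.35, 0.0301) passed, and with actin integrity in the model they were 0.03 and 0.08. The second *HSDL2* probe passed at 0.63 (adjusted p = 0.000259).

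Fibre and cell markers moved with batch too. In batch 3 minus batch 2 the fast fibre genes *ATP2A1* and *PYGM* differed by -1.42 and -1.82, *DES* by -1.28 and *COL3A1* by 1.31 (limma, adjusted p from 6.35e-13 to 9.68e-10 for the 3 other than *DES*, and 2.49e-14 for *DES*). Of 8 slow fibre genes 4 were higher in batch 3 and 1 was lower, and of 6 endothelial genes 3 were lower and 0 higher. Of 6 macrophage genes 3 were lower and 1 higher, and of 6 fibroblast genes 3 were higher and 1 lower. Of 6 adipocyte genes 1 was higher and 2 were lower. The same comparison called 81.5% of all probes, so these calls set no list of markers apart. The part of these markers in the batch differences of the 4 genes was not tested beyond the fit with the slow fibre mean.

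**Figure D2:**
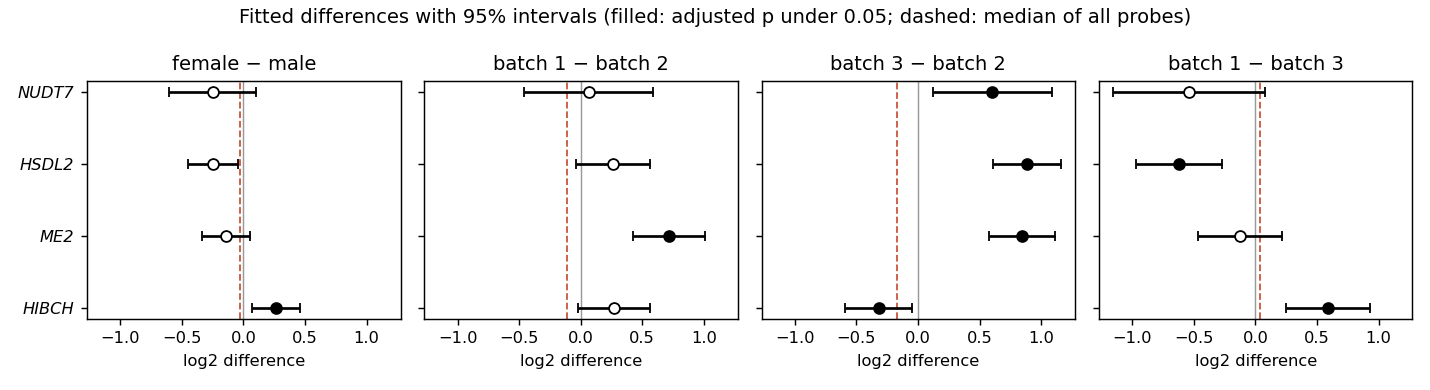
Fitted log2 differences of the 4 genes with 95% intervals for female minus male and for the 3 pairs of slaughter batches (filled points, adjusted p under 0.05; dashed line, median of all probes). *HIBCH* lies above 0 for sex, and in batch 3 minus batch 2 it lies at -0.32 while the other 3 genes lie between 0.60 and 0.89.

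An array measure of RNA integrity moved with batch. No other measure of RNA quality was used here, so degradation and array processing cannot be told apart. The difference between the 5′ and middle probe sets of the actin control, lower in degraded RNA, averaged -1.28, -0.80 and -1.32 in batches 1, 2 and 3. On residuals after sex, batch and weight over 102 pigs, with permutations not held within batches, it correlated with *HSDL2* at r = -0.349 (rho = -0.356; permutation test, p = 0.00035 and 0.00032, adjusted p for r = 0.0014 over the 4 genes) and at -0.265 without the 2 pigs farthest from its median. Values for *ME2* were r = -0.273 (rho = -0.291; permutation p = 0.00531 and 0.00324, adjusted 0.00708) and -0.210, and for *HIBCH* r = -0.286 (rho = -0.302; p = 0.0037 and 0.00242, adjusted 0.00708) and -0.282. For *NUDT7* it was -0.132 (rho = -0.201; p = 0.187 and 0.0433, adjusted 0.187) and -0.0972. Within batches the r of *HSDL2* was -0.197, -0.493 and -0.169, that of *ME2* -0.310, -0.263 and -0.283, that of *HIBCH* -0.191, -0.452 and 0.243, and that of *NUDT7* 0.0380, -0.302 and 0.151. Of all probes, 26.6% had an r at least as far from 0 as *HSDL2*, 39.1% as *HIBCH*, 41.7% as *ME2* and 72.1% as *NUDT7*. The lowest actin difference of any pig, -2.43, was that of the batch 3 male whose array correlated least and whose *HSDL2* value was highest. The part of integrity in the batch differences was not tested beyond the fit with it as an effect, in which batch 3 minus batch 2 was 0.63 for *HSDL2*, 0.65 for *ME2* and -0.53 for *HIBCH*, all still called.

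No gene of the 4 had a slope on carcass weight that passed. Slopes were -0.01, 0.02, 0.01 and 0.06 per 10 kg for *NUDT7*, *HSDL2*, *ME2* and *HIBCH* (limma, adjusted p from 0.667 to 0.976), with intervals of -0.20 to 0.17 for *NUDT7* and -0.04 to 0.16 for *HIBCH*. The weight test called 0% of all probes, 589 having an unadjusted p under 0.05. The interactions of sex with batch and of sex with weight likewise called 0% each (425 and 292 at an unadjusted p under 0.05), and none of the 4 genes passed either.

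*NUDT7*, *HSDL2* and *ME2* rose and fell together across pigs. On residuals after sex, batch and weight, r was 0.735 for *NUDT7* and *HSDL2*, 0.690 for *NUDT7* and *ME2*, and 0.741 for *HSDL2* and *ME2*. Over the 5448 other probes *HSDL2* ranked 1st and *ME2* 3rd for correlation with *NUDT7*, which is how both were selected. A rise of 1 SD in *NUDT7* went with 0.36 of *HSDL2* and 0.33 of *ME2* on the log2 scale. In batches 1, 2 and 3 the r of *NUDT7* and *HSDL2* was 0.912, 0.677 and 0.754, and that of *NUDT7* and *ME2* 0.878, 0.606 and 0.781. The second *HSDL2* probe gave 0.660 with *NUDT7*. Without the array that correlated least the 3 values over all pigs were 0.737, 0.689 and 0.732.

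*HIBCH* ran with them only weakly. Its r was 0.108 with *NUDT7*, 0.219 with *HSDL2* and 0.110 with *ME2*, and it ranked 1707th of 5448 probes with *NUDT7*. In batch 3 alone, 18 pigs, these values were 0.519, 0.522 and 0.442, while in batch 2 the r with *NUDT7* was -0.001. With the slow fibre mean as an effect they were 0.244, 0.340 and 0.237, and with 2 principal components 0.279, 0.238 and 0.234. All arrays share a tissue, a platform and a normalization.

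**Figure D3:**
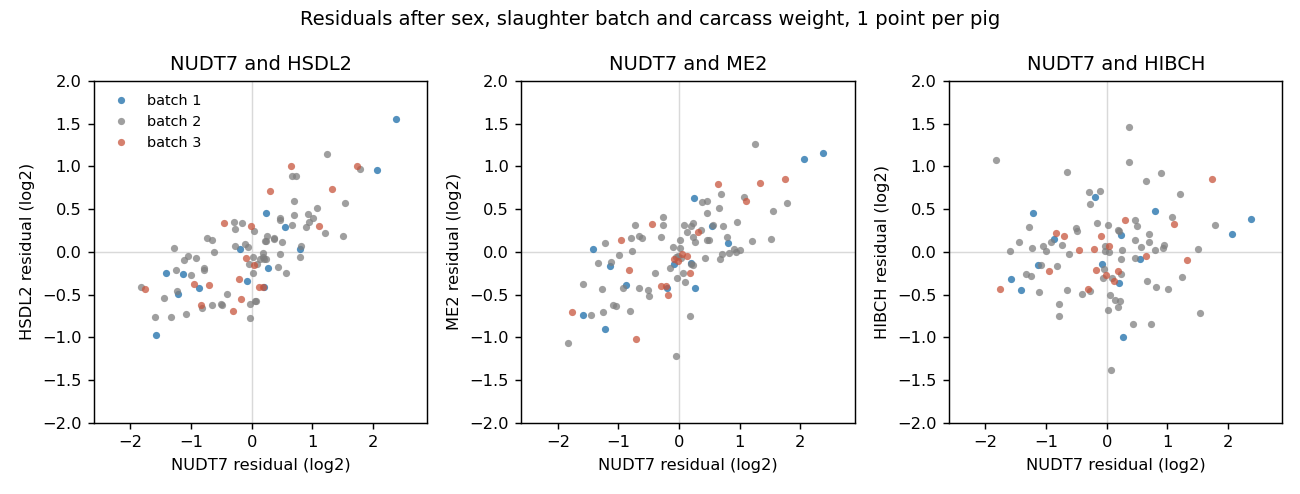
Residuals of *HSDL2*, *ME2* and *HIBCH* against those of *NUDT7* on the log2 scale, after sex, slaughter batch and carcass weight, 1 point per pig coloured by batch. The first 2 panels slope upwards (r = 0.735 and 0.690), and the third shows no slope (r = 0.108).

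The wider pathways were read by the number of measured genes associated with each of the 4 and by their median r, beside all probes. Because *HSDL2* and *ME2* were selected on this same relation, the counts are a description. Leaving out the array that correlated least changed 3 of 60 list counts, each by 1 gene. With *NUDT7*, 12.8% of probes were associated positively and 9.78% negatively (limma, adjusted p under 0.05). The positive and negative shares were 22.6% and 21.8% with *HSDL2*, 22.6% and 20.5% with *ME2*, and 25.6% and 30.3% with *HIBCH*. The median r of all probes lay between 0.00350 and 0.0191.

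Mitochondrial fatty acid oxidation ran most closely with *NUDT7*. Of 11 measured genes 8 were associated positively and 0 negatively, with a median r of 0.584. They included *ACAA2*, the last thiolase of the spiral (r = 0.665), *FABP3*, the fatty acid carrier of muscle (0.658), *HADHB*, a subunit of the trifunctional protein (0.638) and *ECI1*, an enoyl isomerase (0.584). *ACADS* (0.196), *ACAD9* (0.121) and *ECHS1* (-0.0804) did not pass. The count was 8 and 0 with *HSDL2* and with *ME2* too, and 2 and 3 with *HIBCH*. *ACADL*, the long-chain acyl-CoA dehydrogenase, was the gene most alike to *HSDL2* (r = 0.810).

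Peroxisomal genes were split. With *NUDT7*, 5 of 10 measured genes were associated positively and 0 negatively, with a median r of 0.271. *PHYH*, which begins the breakdown of phytanic acid, was the closest (r = 0.583; 0.90, 0.54 and 0.67 in the 3 batches), before *ACOX2*, an oxidase of branched chains (0.404), *ECI2* (0.379) and *DHRS4* (0.367). Batch 2 alone kept the sign of these 4 but left 2 positive peroxisomal calls, and the slow fibre mean as an effect left 3. *HSDL2* had 6 positive and 1 negative, *ME2* 5 and 2, and *HIBCH* 1 and 2.

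Genes of coenzyme A itself were few. *PANK1*, which starts its synthesis, and *ACOT6*, an acyl-CoA thioesterase, were associated positively with *NUDT7* (r = 0.581 and 0.541), and *COASY*, which ends the synthesis, was not (-0.0352). *PANK1* was closer still to *HSDL2* (0.706). The other measured nudix genes, *NUDT4* and *NUDT14*, were associated negatively with *NUDT7* (-0.291 and -0.273), though neither passed in batch 2 alone (-0.0787 and -0.271).

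Around the malic enzyme step, 9 of 17 genes of malate, pyruvate and citrate cycle metabolism were associated positively with *NUDT7* and 2 negatively, with a median r of 0.315. *MDH1*, the cytosolic malate dehydrogenase (0.62), *PDHA1* of pyruvate dehydrogenase (0.576), *GOT1* (0.511) and *ME3*, a mitochondrial malic enzyme (0.460), were the closest. Pyruvate carboxylase, *PC*, and the kinase *PDK3* were the negative ones (-0.404 and -0.402). *ME2* had 8 positive and 4 negative, and its r with *MDH1* was 0.694. With the slow fibre mean as an effect *NUDT7* had 5 positive and 3 negative here. *HIBCH* had 2 positive and 7 negative, with *OGDH* at -0.479, the mitochondrial carrier *SLC25A11* at -0.488 and cytosolic *ME1* at 0.479.

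In branched-chain amino acid breakdown, the pathway of *HIBCH*, 4 of 10 genes were associated positively with it and 2 negatively, with a median r of 0.222. Of all probes 25.6% were associated with *HIBCH* positively and 30.3% negatively, so calls in this list were about as common as elsewhere. The positive ones were *BCKDHB* (0.439) and *DBT* (0.302), subunits of the branched-chain keto acid dehydrogenase, *PCCA* (0.434) of propionyl-CoA carboxylase and *MCCC2* (0.239) of leucine breakdown. *BCKDHA*, the third measured subunit of that dehydrogenase, was at -0.201 and did not pass. The kinase *BCKDK*, which switches the dehydrogenase off, was negative (-0.331), as was the transaminase *BCAT2* (-0.248). *NUDT7* had 2 positive, *DBT* (0.588) and *PCCA* (0.304), and 0 negative. *PCCA* did not pass in batch 2 alone (0.0679), with the slow fibre mean (0.178) or without the 2 pigs farthest from the median (0.240).

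Of 4 short-chain dehydrogenases, *DHRS4* alone was associated with *NUDT7*, where 12.8% of all probes were associated positively and 9.78% negatively. Its call was lost in batch 2 alone (0.111), with the slow fibre mean (0.106) and without covariates (0.198). Among 5 regulators, *TFAM*, the mitochondrial transcription factor, was positive with *NUDT7* (0.377) and with *HIBCH* (0.412), and the retinoid receptor *RXRG* was negative with both (-0.383 and -0.243). With *NUDT7*, *TFAM* did not pass in batch 2 alone (0.313), nor *RXRG* with the principal components (-0.182). *PPARGC1A*, a coactivator of mitochondrial genes, did not pass with *NUDT7* (0.150) and was negative with *HIBCH* (-0.310). With *HIBCH* 1 of the 5 regulators was positive and 4 were negative, most of all *PPARD* (-0.493) and *RXRB* (-0.479). Over all probes 25.6% were positive and 30.3% negative with *HIBCH*.

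**Figure D4:**
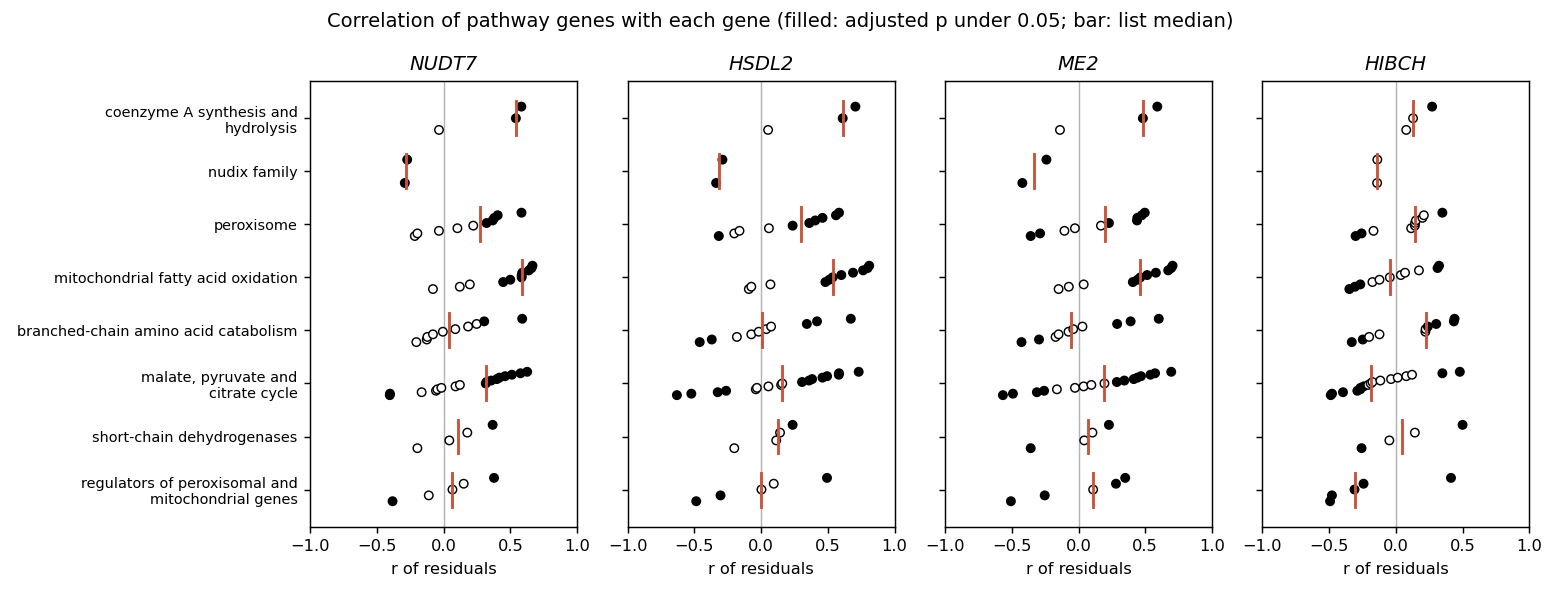
Correlation of residuals of each measured pathway gene with *NUDT7*, *HSDL2*, *ME2* and *HIBCH* (filled points, adjusted p under 0.05; bar, list median), 1 row per list. Fatty acid oxidation lies to the right for *NUDT7*, *HSDL2* and *ME2* (8 of 11 called in each) and is spread about 0 for *HIBCH*.

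Slow fibre genes moved with 3 of the 4 genes. Slow fibre markers were associated positively with *NUDT7* in 7 of 8 cases and negatively in 0, with a median r of 0.564. *PLN*, the regulator of the slow calcium pump, was the gene most alike to *NUDT7* outside the set (0.676), and *ATP2A2*, that pump, followed among the markers (0.608), with *TNNC1* (0.582) and *TNNT1* (0.575). *HSDL2* and *ME2* had 8 of 8, and *HIBCH* 0 positive and 1 negative. The mean of the slow markers correlated with *NUDT7*, *HSDL2*, *ME2* and *HIBCH* at 0.612, 0.516, 0.587 and -0.136. The fast fibre genes *ATP2A1* and *PYGM*, the only 2 measured of 13 listed, were negative with all 4. They were at -0.386 and -0.292 for *NUDT7* and -0.420 and -0.371 for *HIBCH*. With *NUDT7* neither passed with the principal components (-0.266 and -0.0587). *PYGM* also did not pass in batch 2 alone (-0.291) or without the 2 pigs farthest from the median (-0.225). In bulk muscle fewer fibres of a type and less RNA per fibre cannot be told apart. With the slow fibre mean as an effect, the r of *NUDT7* was 0.618 with *HSDL2* and 0.516 with *ME2*, and that of *HSDL2* with *ME2* 0.632.

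Markers of other cells differed between the genes. Of 6 adipocyte genes *NUDT7* had 3 positive (*LPL* 0.509, *LIPE* 0.358, *FABP4* 0.282) and 1 negative (*CFD* -0.320), with *ADIPOQ* at -0.0405. With the slow fibre mean *LPL* (0.212) and *FABP4* (0.164) did not pass, in batch 2 alone *LIPE* (0.282) and *FABP4* (0.262) did not, and with the principal components *CFD* (-0.100) and *FABP4* (0.129) did not. Of 6 endothelial genes only *TEK* passed (0.283), a call lost after quantile normalization (0.247), with actin integrity (0.256), the slow fibre mean (0.0421) or the principal components (0.0676), and in batch 2 alone (0.265), and of 6 fibroblast and 6 macrophage genes none did. *HSDL2* and *ME2* each had 3 positive and 0 negative endothelial genes, and the same adipocyte counts as *NUDT7*. Of macrophage genes *HSDL2* had 3 negative and 0 positive, and *ME2* 2 positive and 0 negative. Over all probes the positive and negative shares were 12.8% and 9.78% with *NUDT7* and 22.6% and 21.8% with *HSDL2*. They were 22.6% and 20.5% with *ME2* and 25.6% and 30.3% with *HIBCH*. *HIBCH* was negative with 4 of 6 endothelial and 4 of 6 macrophage genes, among them *ESAM* (-0.488) and *C1QA* (-0.436), positive with 3 of 6 fibroblast genes, and at -0.522 with the muscle marker *DES*. The part of cell makeup in the *HIBCH* differences was not tested beyond the fit with the slow fibre mean.

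**Figure D5:**
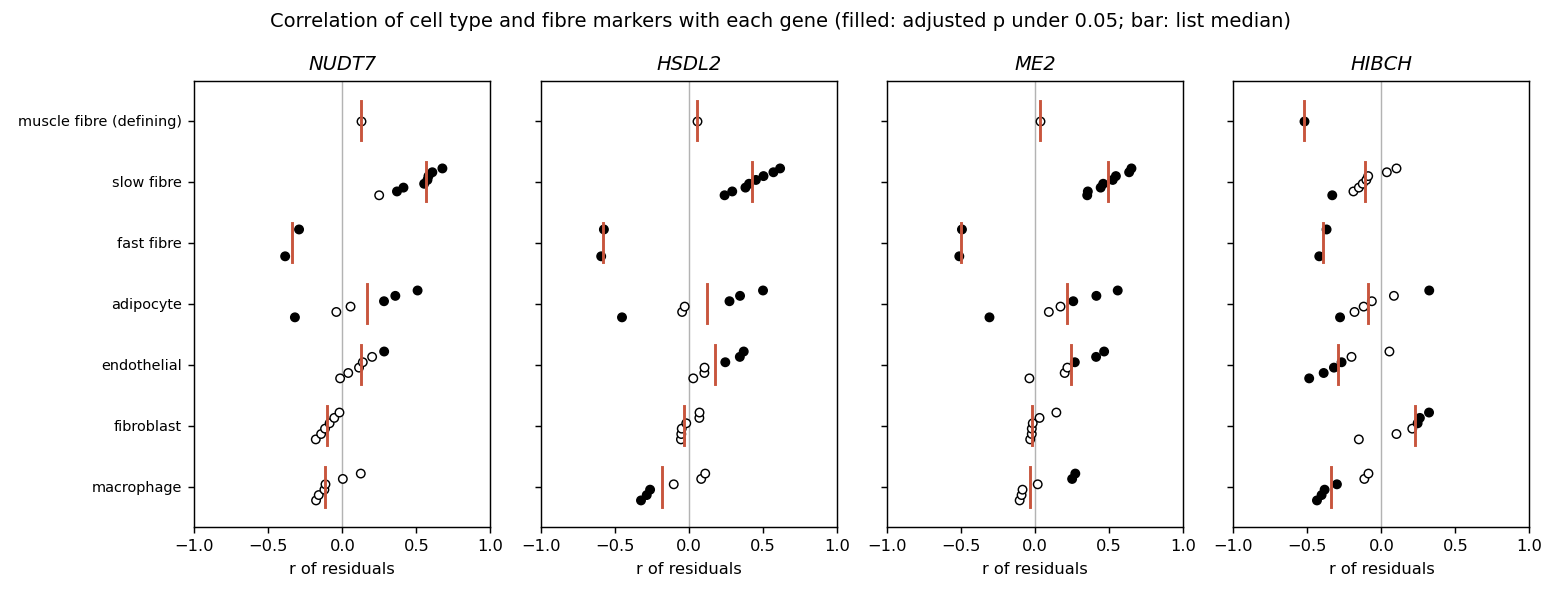
Correlation of residuals of fibre and cell type markers with each of the 4 genes (filled points, adjusted p under 0.05; bar, list median), 1 row per list. Slow fibre markers lie to the right for *NUDT7*, *HSDL2* and *ME2* and near 0 for *HIBCH*, which lies to the left for *DES*, endothelial and macrophage markers.

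By largest r, the genes most alike to *NUDT7* were *PLN* (0.676), *LDHB*, the heart-type lactate dehydrogenase subunit (0.669), *TRNP1* (0.667), *ACAA2* (0.665) and *DDAH1*, which clears asymmetric dimethylarginine (0.662). The most opposed were *ZDHHC14*, a palmitoyltransferase (-0.667), *PDZRN3* (-0.599), *CAND2* (-0.599), *STBD1*, a glycogen-binding protein (-0.594), and *ASNS*, asparagine synthetase (-0.572). *ZDHHC14* was also the most opposed to *HSDL2* (-0.775) and *ME2* (-0.763), at -0.0304 for *HIBCH*. *HSDL2* was next most alike to *HADHB* (0.798), *BIVM* (0.765), *ACAA2* (0.764) and *OXNAD1* (0.739), and opposed by *GPD1* (-0.715) and *GAPDH* (-0.682) of glycolysis and its side branch, *ADSSL1* (-0.714) and *EGF* (-0.694). *ME2* was most alike to *FABP3* (0.704), *LDHB* (0.701), *MDH1* (0.694), *HADHB* (0.694) and *OXNAD1* (0.673).

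*HIBCH* had another set of neighbours. The most alike were *MAGEH1* (0.677), *MED21*, a subunit of the Mediator complex (0.676), *ABHD10*, a mitochondrial hydrolase (0.635), *RWDD3* (0.618) and *TM2D3* (0.611). The most opposed were *SLC25A6*, an ADP/ATP carrier (-0.663), *DAZAP1* (-0.654) and *SF3B2* (-0.650), both RNA-binding proteins, *TIAF1* (-0.645) and *HMGA1*, a chromatin protein (-0.644). *SLC25A6* and *TIAF1* were at 0.167 and 0.0317 in batch 3 alone, against -0.722 and -0.704 in batch 2. For *NUDT7* the r of *MAGEH1* was -0.0340 and that of *MED21* 0.127.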

How the data were processed

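*Longissimus dorsi* RNA of 102 pigs had been hybridized to porcine arrays, 1 array per pig. The authors generated the data with GCOS, checked array quality with AffyPLM, normalized with GCRMA in BRB-ArrayTools and deposited log2 intensity values. Which GCRMA version they used was not given in the sources used here. Of 5493 probes, 44 controls were left out. Their methods name a filter on variable probes (over 20% of values beyond 1.5 times the median), which 5340 of 5449 probes pass.

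Sex, slaughter batch (3 levels) and carcass weight (per 10 kg) were fitted with limma 3.58.1 in R 4.3.3, two-sided, with Benjamini-Hochberg adjustment over all probes at 0.05. For associations the residual of a gene, scaled to 1 SD, was added and its own probe left out. Within-batch correlations between genes came from a fit to that batch alone, those with actin from the pooled residuals. Permutation tests used 100000 resamples. Alternatives were another normalization, further or fewer effects, array weights, left-out arrays, batch 2 alone and Benjamini-Yekutieli adjustment at 0.20. Leaving out the array that correlated least was chosen after seeing the data. The fits were tried on simulated data with independent normal residuals. Such data hold neither the correlation between probes nor the relatedness of these pigs, so they do not test those features. Members and gene lists were chosen with earlier results of these data known. Named genes are the 4 members, the 5 most alike and 5 most opposed to each, and up to 4 per list by the smallest p with *NUDT7*; other list genes were named after their values were seen. Lists used 1 probe per gene. Precision is limited by the number of arrays. Genotypes are not used here. Figures were drawn with matplotlib 3.10.9.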

Additional observations from a re-analysis of the deposited data

How the results depend on the processing

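Over 1022 alternative values, 904 kept their direction and their side of the threshold or moved by less than the spread, 40 lost a call, 16 gained one, 23 moved and 39 changed sign, and the cause was not tested for any. The higher level of *HIBCH* in females lost its call at 0.25 with the slow fibre mean, 0.22 with no other effects and 0.32 in batch 2 alone. The F over batches of *NUDT7* passed at 4.34 after quantile normalization, 3.35 without the arrays whose *EIF1AY* went against their label and 3.30 with no other effects. Its difference of batch 1 minus batch 2 changed sign to -0.0956 with actin integrity, -0.18 with array weights and -0.18 with the slow fibre mean.

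Weight slopes per 10 kg, none of which passed, changed sign for *NUDT7* to 0.00971 with actin integrity and 0.0415 in batch 2 alone, for *HSDL2* to -0.00839 with array weights, -0.00960 with the slow fibre mean, -0.0657 with no other effects and -0.0788 in females alone, and for *ME2* to -0.0189 with the slow fibre mean and -0.11 with no other effects. Associated probes numbered 1866, 3990, 4242 and 1556 for *NUDT7*, *HSDL2*, *ME2* and *HIBCH* without covariates. With 2 principal components as effects they numbered 1391 for *HSDL2*, 1176 for *ME2* and 267 for *HIBCH*. With actin integrity *HSDL2* had 1594, and in batch 2 alone *NUDT7* had 789.

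The r of *NUDT7* and *HSDL2* was 0.618 with the slow fibre mean and 0.912 in batch 1. That of *NUDT7* and *ME2* was 0.57 with the principal components, 0.516 with the slow fibre mean and 0.878 in batch 1. That of *HSDL2* and *ME2* was 0.834 in males, 0.597 with the principal components, 0.632 with the slow fibre mean, and 0.918, 0.631 and 0.852 in the 3 batches. Without covariates the r of *HIBCH* with *NUDT7*, *HSDL2* and *ME2* was -0.00399, -0.0108 and -0.0134. In batch 3 alone these were 0.519, 0.522 and 0.442, and in batch 2 alone that with *NUDT7* was -0.00103.

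Some associations with *NUDT7* changed sign, given here by r. With the slow fibre mean these were *DES* (-0.237), *TNNT1* (-0.0256), *PECAM1* (-0.145), *CLDN5* (-0.0883), *ESAM* (-0.297), *COL3A1* (0.0986), *CD163* (-0.00626), *COASY* (0.0439), *ECI2* (-0.0192) and *HSD17B8* (-0.108). *TNNT1* is itself part of that mean, so its change there follows partly from the adjustment. With the principal components these were *COL3A1* (0.0116), *CD163* (-0.138), *COASY* (0.161), *NUDT14* (0.0288), *BCKDK* (0.159), *DECR2* (0.133), *PPARGC1A* (-0.234) and *RXRB* (0.0745). In batch 2 alone these were *DES* (-0.0375), *HSD17B8* (-0.00688) and *DHRS7* (-0.0967). Without covariates these were *DES* (-0.0595) and *COL3A1* (0.0233). Without the 2 pigs farthest from the median this was *DHRS7* (-0.0326). No paired analysis was possible because pig numbers are unique and pair no samples. No detection calls were used, so whether the lower values of the dimmer probes lie above background was not tested.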
